A study of Mus musculus with 7 samples.

Results

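*Neurog2*, *Neurod1*, *Neurod2*, *Neurod4*, *Olig2*, *Bhlhe22* and *Insm1* encode transcription factors of neurogenesis. They were picked by gene name from the table of raw counts, where 7 of the 48440 genes listed carry these names, and all 7 were among the 20019 genes with enough counts to be tested between genotypes. Of the 7, 6 belong to the basic helix-loop-helix (bHLH) family and *Insm1* is a zinc finger gene. RNA-seq was done on whole mouse retina at E16, in 7 libraries that were each made from a pool of retinas of 1 genotype. The control (WT, 1 library) carried *Chx10-Cre* alone, the heterozygotes (Het, 3 libraries) were *Chx10-Cre;Ptbp1lox/WT* and the homozygotes (KO, 3 libraries) were *Chx10-Cre;Ptbp1lox/lox*, so that Cre was present in every group. *Chx10-Cre* makes a fusion of Cre and GFP in retinal progenitors from the onset of neurogenesis, so that the deletion is aimed at cells of that descent and not at blood vessels, microglia or tissue around the retina. The pools differed in their number of retinas, within and between groups. The sources used here do not say which animals or litters went into which pool, so the p-values below measure the spread between these pooled libraries. Since whole retina was measured, fewer cells of a type and less RNA per cell cannot be told apart.

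Proneural bHLH proteins pair with broadly expressed E proteins, and the pair binds a short DNA motif, the E-box, whose letters are CANNTG. Id proteins compete for the E proteins, and Hes and Hey proteins, many of them targets of Notch signalling, repress proneural genes. In the retina, *Neurog2* and *Olig2* mark progenitors that are about to give rise to neurons, *Insm1* and *Neurod4* follow in newly formed neuronal precursors, and *Neurod1*, *Neurod2* and *Bhlhe22* act in differentiating photoreceptor, amacrine or bipolar cells.

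The count table held between 120593979 and 171117305 counts per library. Expression is given below in CPM, the count of a gene relative to the size of its library after TMM normalization, and SD is over the libraries of a group. *Ptbp1*, the targeted gene, was at 381 CPM in WT, at 210, 219 and 234 CPM in Het1, Het2 and Het3, and at 27.9, 6.04 and 46.9 CPM in KO1, KO2 and KO3, which left the KO libraries at 12.2% of Het on average. All 7 genes of a list of retinal identity and progenitor markers were above 1 CPM in both groups, with a summed level of 2476 to 2602 CPM in Het and 2484 to 2506 CPM in KO. The Het1 library stood apart from the others in its skeletal muscle and pigmented cell genes. Its 10 skeletal muscle genes summed to 287 CPM against 5.04 to 5.92 CPM in the other 6 libraries. Its 7 pigmented cell genes summed to 531 CPM against 21.1 to 64.6 CPM. For the 7 factors, the fit without Het1 is therefore given as well. KO3 stood apart from KO1 and KO2 in its lens and erythroid genes, whose values are given below with the marker lists.

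The stretches of DNA just upstream of *Neurod1* and *Neurod2*, which were higher in KO, and of *Neurog2*, which was not, are shown because E-boxes are the sites that proteins of this family bind. The bases are from windows of 250 bases before each RefSeq transcript start on GRCm38.p6, limited to the part that lies before every annotated exon, and are written 5′ to 3′ on the gene's own strand with each CANNTG in capitals.
Neurod1, chr2:79456786-79456886, minus strand: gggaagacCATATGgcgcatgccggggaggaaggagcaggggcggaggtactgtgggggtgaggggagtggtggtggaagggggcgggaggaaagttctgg
Neurod2, chr11:98329649-98329895, minus strand: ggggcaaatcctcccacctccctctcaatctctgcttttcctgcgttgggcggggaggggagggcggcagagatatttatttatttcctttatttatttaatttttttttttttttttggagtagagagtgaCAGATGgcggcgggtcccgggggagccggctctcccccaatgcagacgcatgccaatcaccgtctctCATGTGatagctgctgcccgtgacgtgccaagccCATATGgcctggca
Neurog2, chr3:127632886-127633134, plus strand: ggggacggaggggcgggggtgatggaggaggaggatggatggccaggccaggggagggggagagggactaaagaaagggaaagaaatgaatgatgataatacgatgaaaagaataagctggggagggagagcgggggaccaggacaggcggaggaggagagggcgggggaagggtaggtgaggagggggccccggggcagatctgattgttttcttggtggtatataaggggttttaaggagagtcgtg
The *Neurod1* stretch held 1 E-box, CATATG, with 236 bases between it and the RefSeq transcript start. The *Neurod2* stretch held 3 E-boxes, of which CAGATG had 112 bases between it and the start, CATGTG had 45 bases and CATATG had 11. No CANNTG was found in the window of *Neurog2*, nor in those of *Neurod4* and *Olig2*. No window was available for *Bhlhe22*, which was also higher in KO, or for *Insm1*. Whether E-boxes go with the change in KO was not tested. CANNTG is a frequent motif: of 32851 RefSeq promoter windows of the same length, 66.2% held at least 1 and 12.2% held at least 3. CATATG was in 3.46% of them, and CAGATG, read on both strands, in 14.4%. A match describes these letters and is not a measured binding site.

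In KO retinas, 3 of the 7 genes were higher than in Het by edgeR's quasi-likelihood test with Benjamini-Hochberg adjustment over all genes tested: *Neurod2*, *Bhlhe22* and *Neurod1*, by 2.79-fold, 1.41-fold and 1.25-fold. A gene was counted as changed at an adjusted p below 0.05 and a change of more than 1.2-fold, and 0 of the 7 were lower by that rule. Over all 20019 genes, 7.22% passed the rule, 4.01% higher and 3.21% lower in KO. The 7 genes were chosen with earlier results of these data known, so their count beside this share is a description only. *Neurog2* was lower in KO by less than 1.2-fold, at an adjusted p of 0.0316. *Neurod4*, *Olig2* and *Insm1* did not pass the test. Het and KO libraries did not overlap for 4 of the 7 genes (*Neurod2*, *Bhlhe22*, *Neurod1* and *Neurog2*), compared with 36.3% of all genes tested. DESeq2, run as an alternative, called the 3 genes too. It called 2070 genes against 1445 by edgeR. Its share of 7.04% is of 29424 genes with a p-value, a larger set than the 20019 of edgeR. In contrast, edgeR's glmTreat, which tests against the 1.2-fold limit itself, called 0 of the 7 and 1.08% of all genes. Without Het1, and likewise without KO3, edgeR called the same 3 of the 7. For any 1 gene, the exact permutation p has a floor of 0.1 at this number of libraries.

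**Figure D1:**
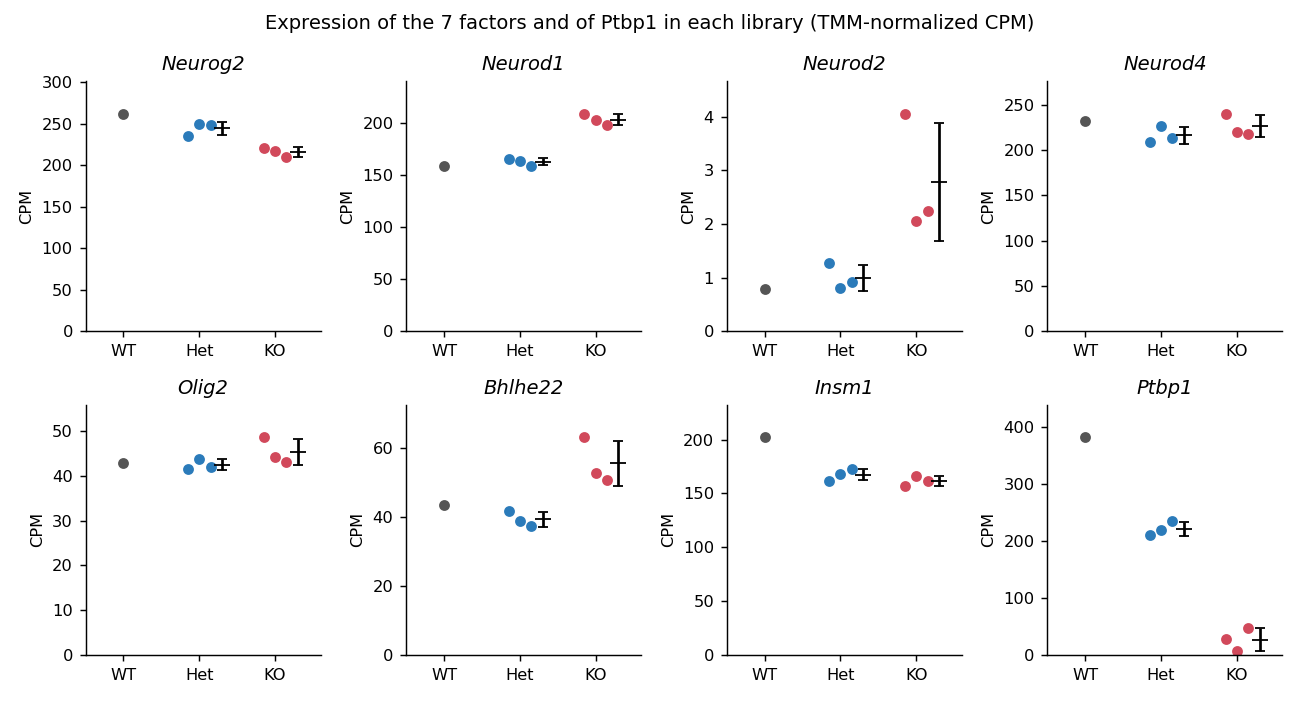
Expression of the 7 transcription factor genes and of *Ptbp1* in each library, in TMM-normalized CPM on axes that start at 0; each point is 1 library (WT, 1; Het, 3; KO, 3) and the bars are the mean and SD of 3 libraries. The KO points of *Neurod1*, *Neurod2* and *Bhlhe22* all lie above the Het points and those of *Neurog2* all lie below them, while the points of *Neurod4*, *Olig2* and *Insm1* overlap.

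*Neurog2* (ENSMUSG00000027967.8; chr3:127633135-127635631, plus strand) encodes a proneural factor of neurogenic progenitors. It was measured at 262 CPM in WT, at 235, 249 and 248 CPM in Het1 to Het3 and at 221, 217 and 209 CPM in KO1 to KO3. All 3 KO libraries lay below all 3 Het libraries, and the WT library lay above all 6. The level was 244 ± 8.23 CPM in Het and 216 ± 5.80 CPM in KO (mean ± SD, n = 3 for both), which gave a log2 fold change of -0.18 (standard error 0.0377, 95% interval -0.27 to -0.09, edgeR adjusted p = 0.0316). The KO level was thus 0.883 times the Het level, with an interval of 0.829 to 0.940. In edgeR fits that left out Het2, Het3, KO2 or KO3 the adjusted p was 0.123, 0.117, 0.103 or 0.0504, while the log2 fold change stayed between -0.21 and -0.16. Without Het1 the log2 fold change was -0.21 (edgeR adjusted p = 0.0371), and with the replicate number as a block the adjusted p was 0.0691.

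*Olig2* (ENSMUSG00000039830; chr16:91225457-91228677, plus strand) encodes a bHLH factor found in retinal progenitors near their last divisions, and elsewhere in the nervous system in the oligodendrocyte lineage. It was at 42.9 CPM in WT, at 41.6, 43.8 and 42.0 CPM in the Het libraries and at 48.6, 44.2 and 43.0 CPM in the KO libraries. KO1 was the highest and KO3 lay within the Het range. The log2 fold change was 0.09 (95% interval -0.030 to 0.21, edgeR adjusted p = 0.273), so that the interval of the KO level ran from 0.980 to 1.16 times the Het level. Without Het1 the log2 fold change was 0.077 (edgeR adjusted p = 0.457). The 9 genes of an oligodendrocyte lineage list summed to 65.4 CPM in WT, 66.2 to 73.2 CPM in Het and 63.3 to 66.9 CPM in KO, which overlapped. The 1 called gene among them, *Bcas1*, was low but higher in KO, at 0.279 CPM in Het and 0.715 CPM in KO on average (log2 fold change 1.36, edgeR adjusted p = 0.00841). *Sox10*, a factor of this lineage and also of neural crest and pigment cells, was at 2.48 CPM in Het1 and between 0.106 and 0.395 CPM in the other 6 libraries. Both were named after their values were seen.

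*Insm1* (ENSMUSG00000068154.5; chr2:146221921-146225020, plus strand) encodes a zinc finger repressor of newly generated neurons and endocrine cells. Its level was 202 CPM in WT, 162, 168 and 173 CPM in the Het libraries, and 157, 166 and 161 CPM in the KO libraries. The WT library lay above all 6 others, and the Het and KO libraries overlapped. The log2 fold change between KO and Het was -0.055 (95% interval -0.14 to 0.033, edgeR adjusted p = 0.355), and -0.079 without Het1 (edgeR adjusted p = 0.284). The Het mean was 82.9% and the KO mean 79.8% of the WT value, which comes from 1 library and has no error.

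*Neurod4* (ENSMUSG00000048015; chr10:130268152-130280240, minus strand) encodes a bHLH factor that acts with other proneural factors in amacrine and bipolar cell formation. It was at 232 CPM in WT, at 209, 227 and 213 CPM in the Het libraries and at 240, 220 and 218 CPM in the KO libraries. The groups overlapped, and the WT value fell within the KO range. The level was 216 ± 9.21 CPM in Het and 226 ± 12.1 CPM in KO (mean ± SD, n = 3 for both). The log2 fold change was 0.06 (95% interval -0.057 to 0.18, edgeR adjusted p = 0.433), and the KO level had an interval of 0.961 to 1.14 times the Het level. Without Het1 the log2 fold change was 0.039 (edgeR adjusted p = 0.705).

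*Neurod1* (ENSMUSG00000034701.9; chr2:79452521-79456751, minus strand) encodes a bHLH factor of photoreceptor precursors and amacrine cells. It was at 158 CPM in WT, at 166, 163 and 159 CPM in the Het libraries and at 209, 203 and 198 CPM in the KO libraries. The lowest KO library was well above the highest Het library, and the WT library lay just below the Het libraries. From 163 ± 3.37 CPM in Het to 203 ± 5.53 CPM in KO (mean ± SD, n = 3 for both), the log2 fold change was 0.32 (standard error 0.0330, 95% interval 0.24 to 0.40, edgeR adjusted p = 0.00558). Of the 3 genes that rose, *Neurod1* was the one whose call held with each of the 6 Het and KO libraries left out in turn, with edgeR adjusted p values from 0.00833 to 0.0425 (0.0141 without Het1). It was not past the 1.2-fold limit when edgeR's glmTreat tested against that limit itself (adjusted p = 0.280). The first exon of *Cerkl*, on the same strand, overlaps the start of *Neurod1* in the annotation. *Cerkl* itself was at 1.80 ± 0.0836 CPM in Het and 2.77 ± 0.448 CPM in KO (mean ± SD, n = 3 for both), or 1.10% and 1.36% of the CPM of *Neurod1*. It was called higher in KO too (log2 fold change 0.63, edgeR adjusted p = 0.0386). A noncoding gene on the opposite strand, *Gm26755*, also overlaps *Neurod1*, and whether the authors' counting used strand is not given in the sources used here. The effect of these overlaps on the counts of *Neurod1* was not tested.

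*Bhlhe22* (ENSMUSG00000025128.7; chr3:18054174-18057517, plus strand) encodes a bHLH repressor of amacrine and bipolar subtypes. It was at 43.4 CPM in WT, at 41.8, 38.7 and 37.3 CPM in the Het libraries and at 63.1, 52.8 and 50.7 CPM in the KO libraries. KO1 stood above KO2 and KO3, which were close to each other, and WT lay between the groups. The level went from 39.3 ± 2.30 CPM in Het to 55.5 ± 6.62 CPM in KO (mean ± SD, n = 3 for both), which gave a log2 fold change of 0.50 (standard error 0.0878, 95% interval 0.29 to 0.71, edgeR adjusted p = 0.0199). The adjusted p from edgeR was 0.0287 without Het1 and 0.0198 without KO1, but 0.0874 without Het2, 0.0778 without Het3 and 0.0596 without KO2.

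*Neurod2* (ENSMUSG00000038255.6; chr11:98325415-98329648, minus strand) encodes a bHLH factor of differentiating neurons, including subsets of amacrine and ganglion cells. It was the scarcest of the 7 genes, with 118 raw counts in WT, 216, 96 and 138 in the Het libraries and 538, 270 and 299 in the KO libraries. In CPM these were 0.794 in WT, 1.27, 0.806 and 0.909 in Het, and 4.06, 2.05 and 2.24 in KO. KO1 was the highest KO library and Het1 the highest Het library, and even so the groups did not overlap. The level was 0.996 ± 0.245 CPM in Het and 2.79 ± 1.11 CPM in KO (mean ± SD, n = 3 for both). The log2 fold change was 1.48 (standard error 0.313, 95% interval 0.73 to 2.23, edgeR adjusted p = 0.0324). Without KO1 it was 1.11 (edgeR adjusted p = 0.0416) and without Het1 1.70 (edgeR adjusted p = 0.0380). Leaving out Het2, Het3 or KO2 ended the call, at an edgeR adjusted p of 0.117, 0.115 or 0.0584.

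**Figure D2:**
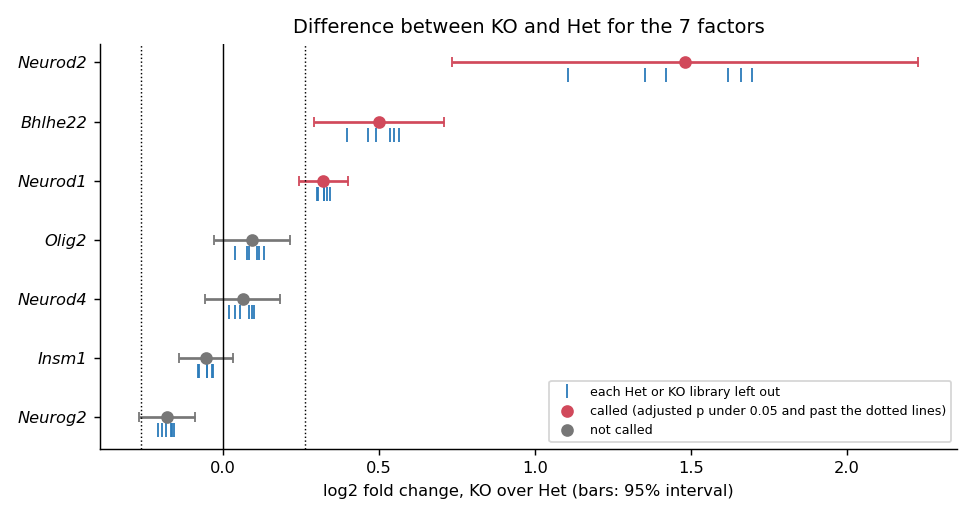
Log2 fold change between KO and Het for the 7 genes, with the 95% interval as a bar, zero as a solid line and the 1.2-fold limits as dotted lines; the blue ticks are the values with each Het or KO library left out. *Neurod2*, *Bhlhe22* and *Neurod1* (red) passed both limits, and the interval of *Neurog2* lies below zero although its point lies inside the fold limit.

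The same KO library was the highest of its group in 6 of the 7 genes: KO1 was highest in all but *Insm1*. Het1 was the highest Het library for the 3 genes that rose, *Neurod1*, *Neurod2* and *Bhlhe22*, and the lowest for the other 4. The WT value was nearer to the Het mean than to the KO mean in 6 of the 7 genes, the exception being *Neurod4*.

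Compared per length, as TMM CPM per kilobase of annotated exon, the 7 genes spanned a wide range. *Neurog2* was the most abundant of them, at 110 in Het and 96.8 in KO. *Neurod4*, *Neurod1* and *Insm1* followed at 64.6, 59.6 and 54.1 in Het and at 67.5, 74.5 and 52.0 in KO. *Olig2* and *Bhlhe22* were lower, at 16.8 and 11.7 in Het and 17.9 and 16.6 in KO, and *Neurod2* was far below, at 0.317 in Het and 0.886 in KO. Neighbours in this order did not overlap between libraries of a group, except for *Olig2* and *Bhlhe22* in KO, although the gap was narrow between *Neurod4* and *Neurod1* in both groups. *Neurod1* had rank 3 in Het, behind *Neurod4*, and rank 2 in KO. In the WT library the order was *Neurog2* at 118, *Neurod4* at 69.4, *Insm1* at 65.2, *Neurod1* at 58.0, *Olig2* at 16.9, *Bhlhe22* at 13.0 and *Neurod2* at 0.253.

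The ratio of *Neurod1* to *Neurog2* within a library, each per kilobase, set the gene of differentiating cells against that of neurogenic progenitors and was chosen after the values were seen. It was 0.493 in WT, 0.576, 0.535 and 0.522 in Het1 to Het3, and 0.773, 0.764 and 0.772 in KO1 to KO3. The KO libraries were close together and all above the Het libraries, while WT was below all 6. The mean was 0.544 ± 0.0280 (SD, n = 3) in Het and 0.770 ± 0.00468 (SD, n = 3) in KO. No test is given for this ratio, since it was picked from its values.

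**Figure D3:**
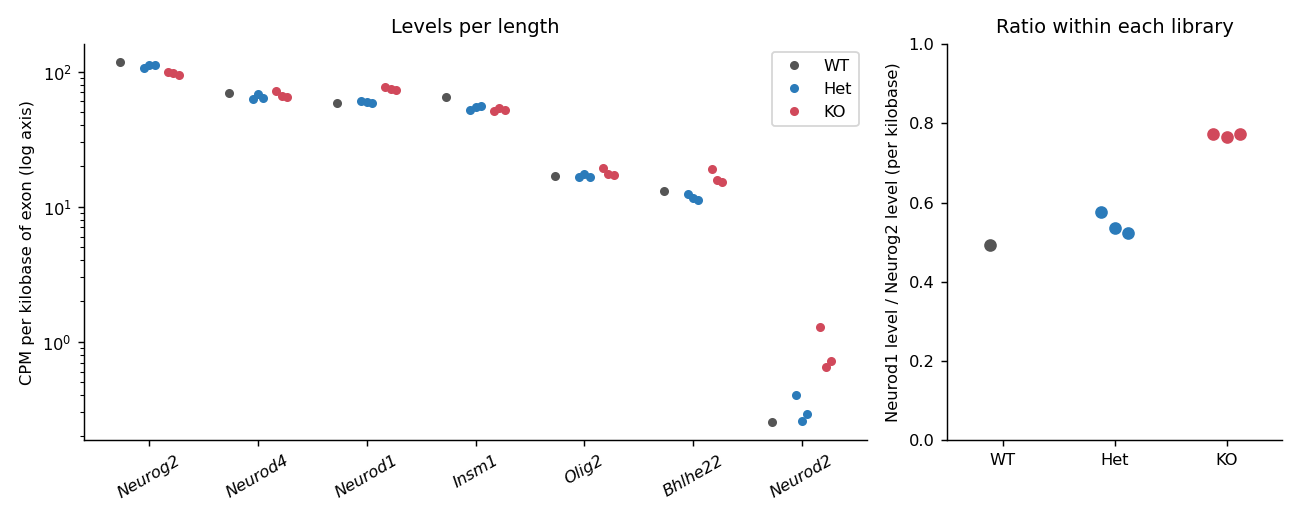
Left, TMM CPM per kilobase of exon of the 7 genes on a log axis, with 1 point per library; right, the ratio of the *Neurod1* level to the *Neurog2* level in each library, on a linear axis from 0. *Neurog2* is the highest and *Neurod2* the lowest gene in every library, and the 3 KO ratios, 0.764 to 0.773, lie above the Het ratios, 0.522 to 0.576.

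Other genes of the pathway were taken from 5 lists with 45 genes in all, of which 42 were tested. By edgeR 7 of these 42 were higher and 4 lower in KO, whereas 4.01% of all 20019 genes tested were higher and 3.21% lower. The same shares apply beside the counts of each list below. The lists were also chosen with earlier results of these data known, so these counts are no test of a list. The median log2 fold change of the 42 genes was 0.0016, beside -0.0047 over all genes tested.

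Of 11 other proneural and neuronal bHLH genes, 8 were tested, 1 was higher in KO, 3 were lower, and the median log2 fold change was 0.064. *Atoh1* and *Neurog3* were not detected at this depth, with 0 counts in every library, and *Olig3* was at 0.0228 CPM or less. *Atoh7*, which is required for ganglion cells, was at 148 CPM in WT, 131, 147 and 158 CPM in Het and 72.1, 86.6 and 89.0 CPM in KO. No KO library reached the lowest Het library, and the log2 fold change was -0.81 (standard error 0.0984, edgeR adjusted p = 0.00783). *Bhlhe23*, the closest relative of *Bhlhe22*, was at 1.17 CPM in WT, 0.936, 1.05 and 1.29 CPM in Het and 0.302, 0.312 and 0.278 CPM in KO. It moved opposite to *Bhlhe22*, and its log2 fold change was -1.88 (standard error 0.179, edgeR adjusted p = 0.00480). The calls of *Atoh7* and *Bhlhe23* held with each library left out. *Nhlh2*, a factor of early neurons, was at 96.4 ± 3.03 CPM in Het and 93.7 ± 1.91 CPM in KO (mean ± SD, n = 3 for both), and its log2 fold change of -0.041 did not pass (edgeR adjusted p = 0.445). The other called genes of this list, named after their values were seen, were *Neurod6* (log2 fold change 0.99, at 0.303 CPM in Het and 0.601 CPM in KO) and *Nhlh1* (-0.80, at 14.8 and 8.54 CPM).

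None of the 3 E protein genes, whose products pair with the tissue-specific bHLH factors, passed both limits. *Tcf12* was nearly level, with a log2 fold change of -0.013 (95% interval -0.088 to 0.062, edgeR adjusted p = 0.807). *Tcf4* was at 224 ± 1.82 CPM in Het and 259 ± 11.3 CPM in KO (mean ± SD, n = 3 for both), which gave a log2 fold change of 0.21 at an edgeR adjusted p of 0.0217 (0.0505 without Het1), which is inside the fold limit. The edgeR adjusted p of *Tcf4* was 0.101, 0.0872 or 0.0673 without Het2, Het3 or KO2, and 0.0240 or 0.0223 without KO1 or KO3. Of the 9 inhibitors (Id, Hes and Hey genes) 3 were higher in KO and 0 lower, with a median of 0.15. *Hey2*, a Notch target, rose from 6.04 ± 0.248 CPM to 10.4 ± 2.05 CPM (mean ± SD, n = 3 for both), with a log2 fold change of 0.78 (edgeR adjusted p = 0.0212). *Heyl*, of the same family, rose from 77.3 ± 5.68 CPM to 108 ± 13.4 CPM (mean ± SD, n = 3 for both), with a log2 fold change of 0.48 (edgeR adjusted p = 0.0272). Both calls were lost without Het2 (edgeR adjusted p = 0.0849 and 0.108) or Het3 (0.0822 and 0.0968), and that of *Heyl* also without KO2 (0.0884). The third was *Hes5*, with a log2 fold change of 0.32, named after its value was seen. The WT library was at 5.73 CPM for *Hey2*, 68.1 CPM for *Heyl* and 77.6 CPM for *Hes5*. It lay below all Het libraries for *Hey2* and *Heyl* and above them for *Hes5*. *Hes1*, the most abundant inhibitor and a repressor of proneural genes in progenitors, was at 118 ± 5.86 CPM in Het and 106 ± 3.77 CPM in KO (mean ± SD, n = 3 for both), and its log2 fold change of -0.16 did not pass (edgeR adjusted p = 0.0747, and 0.0470 without Het1, still inside the fold limit). With any other Het or KO library left out, the edgeR adjusted p of *Hes1* was from 0.0588 to 0.209.

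Among 16 genes of neurogenic progenitors, Notch ligands included, 2 were higher and 1 was lower in KO, with a median log2 fold change of -0.021. *Dll1*, a Notch ligand that proneural factors activate, rose from 53.7 ± 0.259 CPM to 67.0 ± 2.31 CPM (mean ± SD, n = 3 for both), a difference of 0.32 on the log2 scale (standard error 0.0315, edgeR adjusted p = 0.00514). *Numbl*, which encodes a regulator of Notch, fell from 65.3 ± 1.39 CPM to 53.3 ± 2.14 CPM (mean ± SD, n = 3 for both), a difference of -0.29 on the log2 scale (standard error 0.0366, edgeR adjusted p = 0.00831). Both calls held with each library left out. The third was *Gadd45g* (log2 fold change 0.62), named after its value was seen. The 2 most abundant genes of the list, *Sox11* and *Sox4*, both regulators of early neurons, had log2 fold changes of -0.081 and -0.0029 (edgeR adjusted p = 0.509 and 0.966).

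Of 6 other neurogenic zinc finger genes, *Myt1l*, a factor of postmitotic neurons, was the 1 that passed both limits, with a median over the list of -0.0078. *Myt1l* rose from 83.8 ± 2.97 CPM to 101 ± 6.22 CPM (mean ± SD, n = 3 for both), with a log2 fold change of 0.27 (edgeR adjusted p = 0.0238), just past the fold limit. Its call was lost without Het2 (edgeR adjusted p = 0.0870), Het3 (0.0882) or KO2 (0.0611). Its paralog *Myt1*, named after its value was seen, went the other way, from 164 ± 2.80 CPM in Het to 137 ± 2.96 CPM in KO with no overlap, a difference of -0.26 on the log2 scale that lay just inside the fold limit (edgeR adjusted p = 0.00707). *Scrt1* and *Scrt2*, relatives of Snail expressed in new neurons, had log2 fold changes of -0.050 and 0.034 (edgeR adjusted p = 0.729 and 0.803).

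**Figure D4:**
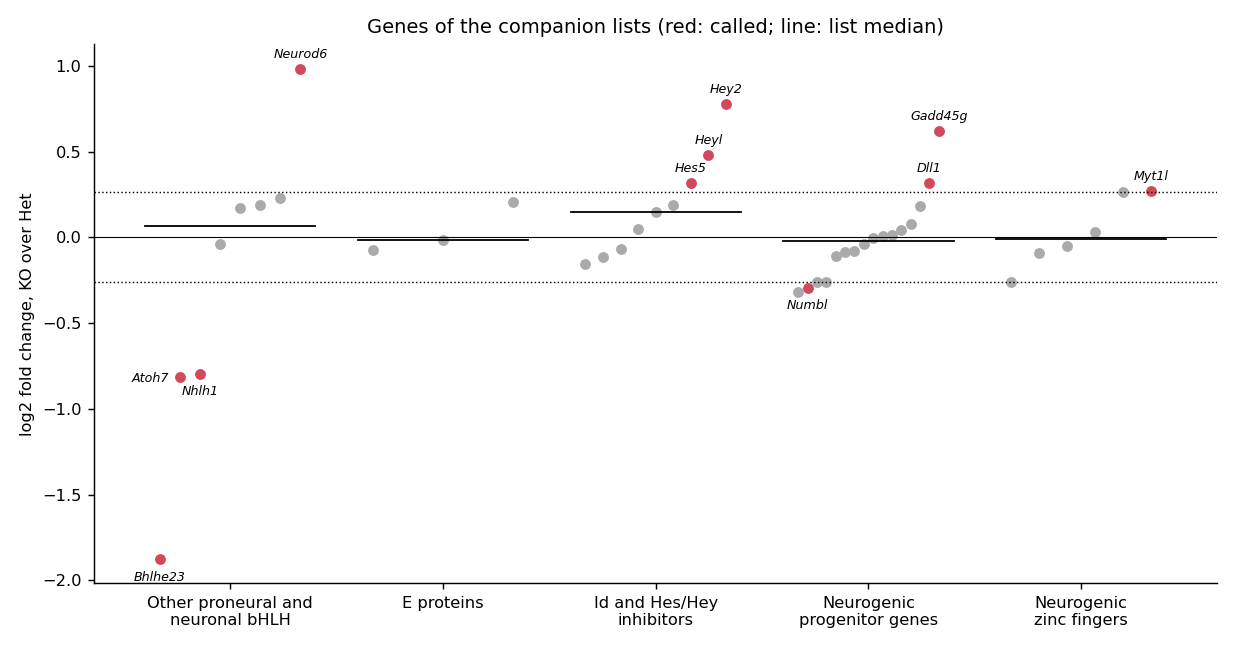
Log2 fold change between KO and Het of the 42 tested genes of the 5 pathway lists, with 1 point per gene, red for genes past both limits, a black line at each list's median and dotted lines at the 1.2-fold limits. The called genes of the bHLH list lie on both sides of zero, from *Bhlhe23* at -1.88 to *Neurod6* at 0.99, and those of the inhibitor list all lie above it.

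Marker lists of retinal cell types were summed in the same comparison. They too were chosen with earlier results of these data known, so their counts and sums are a description only. The 8 amacrine genes summed to 425 CPM in WT, 424 to 463 CPM in Het and 573 to 624 CPM in KO, with 4 higher in KO and a median log2 fold change of 0.48. The 8 photoreceptor precursor genes summed to 632 CPM in WT, 727 to 817 CPM in Het and 914 to 1046 CPM in KO, with 4 higher and a median of 0.37. The 12 ganglion cell genes summed to 3634 CPM in WT, 3651 to 3826 CPM in Het and 3033 to 3444 CPM in KO, with 3 lower and a median of -0.23. Over all genes tested, 4.01% were called higher and 3.21% lower in KO. The summed levels of Het and KO did not overlap in these 3 lists. That was also so for the microglial, vascular, E protein, inhibitor and other bHLH lists. Single genes weighed heavily in some of these sums. The E protein sum was higher in KO, while of its genes only *Tcf4* had a positive log2 fold change. The other bHLH list summed to 263 to 287 CPM in Het and 202 to 213 CPM in KO, where *Atoh7* was at 145 and 82.6 CPM on average. As single genes, *Neurod1*, *Neurod2*, *Bhlhe22* and *Atoh7* did not overlap, as was the case for 36.3% of all genes tested. The 4 horizontal cell genes overlapped, at 203 to 213 CPM in Het and 197 to 217 CPM in KO, and so did the 7 bipolar genes, at 52.2 to 148 CPM and 36.4 to 71.2 CPM. The upper end of the bipolar range in Het was Het1, of which *Trpm1*, also a gene of pigmented cells, made up 117 CPM, and without Het1 the Het range was 52.2 to 65.1 CPM. The 5 microglial genes were higher in KO in sum, at 38.2 to 54.0 CPM in Het and 56.7 to 74.9 CPM in KO. Of the 4 vascular genes, *Kdr* carried nearly all of the summed level and was higher in KO, at 363 to 376 CPM in Het and 468 to 562 CPM in KO. The endothelial markers *Cdh5* and *Pecam1* were on average lower in KO, at 6.59 and 1.98 CPM for *Cdh5* and 4.01 and 1.47 CPM for *Pecam1* in Het and KO, but overlapped between the groups and did not pass (edgeR adjusted p = 0.199 and 0.218). *Trpm1*, *Kdr*, *Cdh5* and *Pecam1* were named after their values were seen. Lens genes (7 genes, 25.2 to 79.4 CPM in Het and 3.21 to 55.0 CPM in KO) and erythroid genes (5 genes, 187 to 525 CPM and 23.9 to 296 CPM) varied widely within both groups and overlapped. The upper end of both KO ranges was KO3. KO1 and KO2 were at 3.21 and 7.66 CPM for lens genes and at 36.4 and 23.9 CPM for erythroid genes, below WT and every Het library. The part of these cell types in the values of *Neurod1*, *Neurod2*, *Bhlhe22* and *Neurog2* was not tested. Genes of the forebrain, where *Neurod2* and *Bhlhe22* are abundant, were near 0, with a summed level of 1.73 CPM in Het1 and 0.198 to 0.525 CPM in the other 6 libraries.

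Over the 7 libraries, the genes whose log2(CPM + 1) followed each factor most closely were ranked by Pearson's r among 11321 genes with a mean of at least 5 CPM. *Neurod1* was followed by *Rhbdl3* (r = 0.996), *Gm13889* (0.995) and *Tmem194* (0.994). *Bhlhe22* was followed by *Galnt15* (0.995), *Unc119* (0.991) and *Zfp109* (0.987), and *Neurod2* by *Adamts15* (0.997), *Agpat3* (0.995) and *Adcy2* (0.995). *Neurog2* was followed by *Rcor2* (0.995), *Gstz1* (0.992) and *Trp53* (0.992), and *Olig2* by *Mmgt1* (0.994), *Lancl2* (0.990) and *Cox18* (0.988). The closest genes to *Neurod4* were *Fip1l1* (0.963), *Prim1* (0.962) and *Hspe1* (0.959), and those to *Insm1* were *Dapk1* (0.971), *Hnrnpdl* (0.959) and *Scaf4* (0.948). With r above 0.9 there were 899 genes for *Neurod1*, 614 for *Neurod2*, 611 for *Neurog2* and 549 for *Bhlhe22*, but 123 for *Olig2*, 37 for *Insm1* and 33 for *Neurod4*. The 4 factors with the most such genes are those whose Het and KO libraries did not overlap, and any gene that separates the genotypes shares that step. Among the 7 factors themselves, *Neurod2* and *Bhlhe22* (r = 0.948) and *Neurod1* and *Bhlhe22* (0.928) were alike, whereas *Neurog2* and *Neurod1* ran opposite to each other (-0.908). These correlations describe 7 libraries that share their genotype groups.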

How the data were processed

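RNA-seq was made from 7 pools of E16 mouse retinas with an Illumina stranded mRNA kit. Alignment by the authors was with STAR, run by rMATS-turbo on GRCm38 with GENCODE release M10, followed by featureCounts. Their deposited values are raw counts, 1 whole number per gene and library. The strand and multi-mapping settings are not given in the sources used here. The methods name a column kit for RNA extraction and the labels name TRIzol. There were 0 other value columns. Because 121 entries repeat a symbol, identifiers were used throughout.

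Counts were fitted with edgeR 4.0.16 (R 4.3.3): filterByExpr on genotype, TMM (factors 0.988 to 1.03), and 1 quasi-likelihood fit over all 7 libraries with a mean per genotype, from which KO was compared with Het. Benjamini-Hochberg adjustment was over the 20019 genes, and the limits (adjusted p below 0.05, log2 fold change beyond 0.263) are those of the study's methods, which used DESeq2. The standard error is the log2 fold change over the square root of F. The biological coefficient of variation was 21.5%. The libraries held 120593979 to 171117305 counts. Replicates differed by 14.0 to 53.2 times the counting variance, as a mean over genes, so none was a copy. That mean leans on genes with high counts. The part of counting in the spread of single genes, such as *Neurod2* with few counts, was not tested. WT has 1 library, which entered the fit but was compared in no test. Scripts were tested on simulated data in which the changes were larger than those of *Neurod1* and *Bhlhe22*. The recovery of changes as small as theirs was not tested.

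The 7 genes and all gene lists were chosen with earlier results of these data known. Named were the 7 genes, *Ptbp1*, of each pathway list up to 2 called genes with the smallest adjusted p and the 2 most abundant, and the 3 genes most like each factor. All other genes given with values, among them *Cerkl*, which overlaps *Neurod1*, and the undetected or nearly undetected *Atoh1*, *Neurog3* and *Olig3*, were named after their values were seen. The result for 1 listed gene was left out and is not in the counts of its list. Coordinates, exon lengths and overlaps come from GENCODE M21 on GRCm38, matched by identifier without version for *Neurod4* and *Olig2*. Promoter windows are from RefSeq GRCm38.p6, which held 5 of the 7 genes (not *Bhlhe22* and *Insm1*); protein sequences were not analysed here. Alternatives were DESeq2 1.42.0, RLE normalization, other filters, Het and KO alone, a replicate block, glmTreat, adjusted p alone and each library left out.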

Additional observations from a re-analysis of the deposited data

How the results depend on the processing

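The number of the 7 factors called in KO against Het was 3 with DESeq2, with RLE normalization, with either other filter, with Het and KO alone, and with the replicate block. It was 4 at an adjusted p alone, which added *Neurog2*, and 0 with glmTreat. With each library left out it ranged from 1 to 3, and was 1, *Neurod1*, without Het2, without Het3 or without KO2, where over all genes 386, 496 and 612 were called in place of 1445. Among the 42 pathway genes, 11 were called at first, 3 with glmTreat, 12 with the replicate block, 15 with DESeq2 and 5 to 12 with each library left out (5 without Het2 and 5 without Het3). Over all genes glmTreat called 217, an adjusted p alone 2221, the replicate block 1268, DESeq2 2070, and leaving out a library 386 to 1673. The smaller counts without a library came with fewer samples; no other cause was tested.

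None of the 7 factors changed direction under these alternatives. Genes near 0 did: with each library left out, *Scrt1* ranged from -0.11 to 0.049 (log2 fold change, positive without KO3), *Scrt2* from -0.026 to 0.13 (negative without KO2), *Sox4* from -0.018 to 0.026 (positive without Het1, and at 0.0032 without KO3) and *Tcf12* from -0.029 to 0.0067 (positive without KO1). *Sox4* was at 0.00023 with at least 10 counts in every library. Of the 21 genes named as most alike, 8 were kept with Spearman's rho and 20 with log2(CPM + 0.1). The order by length-scaled level cannot change with the longest transcript, since each factor has 1 transcript. The deviations of same-numbered Het and KO libraries from their group means had r = -0.12, 0.26 and 0.019. Other pairs ran from -0.35 to 0.22, so the highest r was that of Het2 and KO2. With 3 libraries per group, these values cannot show whether the numbers pair the samples. The replicate block is therefore given as an alternative alone.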
